A study of Mus musculus with 4 samples.

Results

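The 9 transporter genes described here are those by which a mouse neuron's transmitter is usually read, namely Slc17a7, Slc17a6, Slc17a8, Slc32a1, Slc6a5, Slc18a3, Slc18a2, Slc6a3 and Slc6a4. They were taken as a list of names, with no measured value used to pick them, and all 9 of the 9 were found among the 31053 genes of the count tables. Single-nucleus RNA-seq was available as 4 libraries, 1 per group, so there were no replicate libraries and no p-value is given anywhere. The groups were tissue labelled cortex or striatum from male C57BL/6J mice that had received an AAV9 vector into the cisterna magna at 4 weeks of age and were killed at 8 weeks. AAV-VEGF-C carried full-length mouse VEGF-C, and AAV-CTRL carried a soluble piece of VEGFR3 (Ig domains 4 to 7) that does not bind VEGF-C, so the control mice also made a secreted protein. Tissue of 5 mice was pooled for each vector, and the same mice gave both regions of a vector group. None of the mice analysed here had a stroke. Every interval below is a 95% interval that covers counting error only.

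After removal of 6021 likely doublets and members of doublet clusters from 78728 barcodes, 16162 and 18861 nuclei were kept for cortex (AAV-CTRL, then AAV-VEGF-C) and 21292 and 16392 for striatum, with a median of 2124 to 2635 UMIs (unique molecules) per nucleus. Cell barcodes found in more than 1 library numbered 598, of which 75 fell in the same class each time. The region labels were checked against defining genes. Ppp1r1b, which marks striatal projection neurons, stood at 63.4 and 76.1 CPM (UMIs per 1000000 UMIs of the library) in the cortex libraries (AAV-CTRL, then AAV-VEGF-C) and at only 18.8 and 18.5 CPM in the striatum libraries, whereas the thalamic gene Tcf7l2 stood at 301 and 336 CPM in the latter. The 2 libraries labelled striatum were thus lower in a striatal gene than the cortex libraries and carried a thalamic one. Nuclei named striatal projection neuron-like by their markers made up 6.92% and 7.59% of the cortex libraries against 1.75% and 1.74% of the striatum libraries. For libraries and their nuclei, "cortex" and "striatum" below therefore mean the label only. Vegfc itself was at 11.7 to 12.9 CPM in all 4 libraries.

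Each of these transporters moves 1 transmitter or family of transmitters. The vesicular glutamate transporters (Slc17a7, Slc17a6, Slc17a8) load glutamate into synaptic vesicles, Slc17a7 mainly in cortex and cerebellar granule cells, Slc17a6 mainly in thalamus, midbrain and hindbrain, and Slc17a8 in scattered cells that often use a further transmitter. Slc32a1 loads both GABA and glycine, and the plasma membrane carrier Slc6a5 supplies glycine to glycinergic terminals. Slc18a3 loads acetylcholine and Slc18a2 loads dopamine, noradrenaline, serotonin and histamine, while Slc6a3 and Slc6a4 take dopamine and serotonin back into the cells that release them.

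In the mouse genome (GRCm38, GENCODE annotation) the 9 genes lie on 7 chromosomes. Slc17a7 spans chr7:45163949-45176142 and Slc17a6 chr7:51622006-51671119, both on the plus strand, and Slc6a5 lies on the same chromosome at chr7:49910146-49963856. Slc18a3 is a gene of 1 exon and 2413 bases at chr14:32462438-32464850 on the minus strand. It lies whole within the gene of choline acetyltransferase, Chat, on the same strand, with 0 of its bases in annotated Chat exons and its 5′ end 1139 bases inside that of Chat. Whether intronic reads were counted is not given in the sources used here, so reads of Slc18a3 and of intronic Chat RNA may not be separable. The promoter windows (250 bases before to 50 after the start, RefSeq, GRCm38.p6, written 5′ to 3′ on the gene's strand) are printed for 4 genes, Slc17a7 and Slc17a6 because they differed in opposite directions between the region labels, Slc18a3 for its place inside Chat and Slc18a2 because clusters of several transmitters carried it. Capitals mark the GC box letters GGGCGG on either strand and the cAMP response element TGACGTCA, including any overlap of matches.
Slc17a7, chr7:45163671-45163970, plus strand: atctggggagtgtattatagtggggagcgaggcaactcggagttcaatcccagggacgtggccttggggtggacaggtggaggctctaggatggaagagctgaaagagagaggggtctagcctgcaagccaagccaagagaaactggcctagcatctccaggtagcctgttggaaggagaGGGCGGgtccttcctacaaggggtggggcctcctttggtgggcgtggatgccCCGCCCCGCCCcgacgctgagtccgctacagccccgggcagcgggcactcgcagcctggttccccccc
Slc17a6, first of its listed starts, chr7:51621580-51621879, plus strand: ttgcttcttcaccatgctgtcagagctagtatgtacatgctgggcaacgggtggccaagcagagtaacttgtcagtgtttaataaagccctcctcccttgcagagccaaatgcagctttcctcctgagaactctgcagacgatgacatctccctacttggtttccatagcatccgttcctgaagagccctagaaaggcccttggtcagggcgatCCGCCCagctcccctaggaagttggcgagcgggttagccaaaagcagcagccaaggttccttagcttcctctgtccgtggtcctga
Slc18a3, chr14:32464801-32465100, minus strand: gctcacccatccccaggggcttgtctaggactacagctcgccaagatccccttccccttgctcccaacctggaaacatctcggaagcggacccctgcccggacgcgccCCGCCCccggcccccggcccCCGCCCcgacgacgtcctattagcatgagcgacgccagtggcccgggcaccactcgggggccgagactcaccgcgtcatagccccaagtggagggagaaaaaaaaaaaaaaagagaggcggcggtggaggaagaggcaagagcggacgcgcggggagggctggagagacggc
Slc18a2, chr19:59260628-59260927, plus strand: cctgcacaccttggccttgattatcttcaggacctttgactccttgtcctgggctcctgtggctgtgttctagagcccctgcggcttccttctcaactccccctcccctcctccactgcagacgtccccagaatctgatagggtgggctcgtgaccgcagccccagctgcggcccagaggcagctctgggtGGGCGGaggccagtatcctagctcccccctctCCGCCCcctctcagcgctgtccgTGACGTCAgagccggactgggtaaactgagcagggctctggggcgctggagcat
GGGCGG occurred in a window of 6 of the 9 genes and in 35.7% of the 32851 promoter windows of the table. TGACGTCA occurred in 1 of the 9, Slc18a2, against 1.79% of windows, and TATAAA in 0 of the 9 against 13.6%. The shorter motif TGACG, which every TGACGTCA contains, was present in 5 of the 9 against 20.8%, and the E box CANNTG in all 9 against 72.3%. All 5 were searched on both strands, and a match is a match of letters and no more. The counts are of genes with a match in any of their windows, and some of the 9 have more than 1. The percentages are of single windows, so the 2 are not like for like.

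At least 1 UMI of any of the 9 genes was present in 72.8% and 74.1% of nuclei of the cortex libraries (AAV-CTRL, then AAV-VEGF-C) and in 59.4% and 63.3% of those labelled striatum. Slc17a7 led in the cortex libraries and Slc17a6 in the striatum libraries. Slc17a7 was detected in 64.9% (64.1 to 65.6) and 66.1% (65.4 to 66.8) of cortex nuclei from AAV-CTRL and AAV-VEGF-C, and in 13.2% (12.7 to 13.6) and 11.3% (10.8 to 11.8) of striatum nuclei. Slc17a6 ran the other way, at 4.86% (4.54 to 5.21) and 4.89% (4.58 to 5.21) in cortex against 28.8% (28.2 to 29.4) and 35.1% (34.4 to 35.8) in striatum. Slc17a8 was rare in every library, at 0.879%, 0.801%, 1.00% and 1.17% in the 4 libraries, given here and below with cortex first and AAV-CTRL first within each region.

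The inhibitory transporters were both more often detected in the striatum libraries. Slc32a1 was present in 15.7%, 17.0%, 24.0% and 26.2% of nuclei. Slc6a5 was all but restricted to the striatum libraries, with 0.0433% and 0.0159% of cortex nuclei against 1.08% and 1.18% of striatum nuclei. The cortex values rest on 7 and 3 nuclei.

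Among the transporters of acetylcholine and the monoamines, Slc18a3 was present in 0.340%, 0.286%, 0.535% and 0.933% of nuclei. Slc18a2 was found in 1.82%, 1.97%, 8.13% and 9.19%. The reuptake carriers had a sharper split between the labels. Slc6a3 stood at 0.0557% and 0.0424% in cortex against 4.40% and 4.91% in striatum, and Slc6a4 at 0.0433% and 0.0371% against 1.38% and 1.56%.

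**Figure D1:**
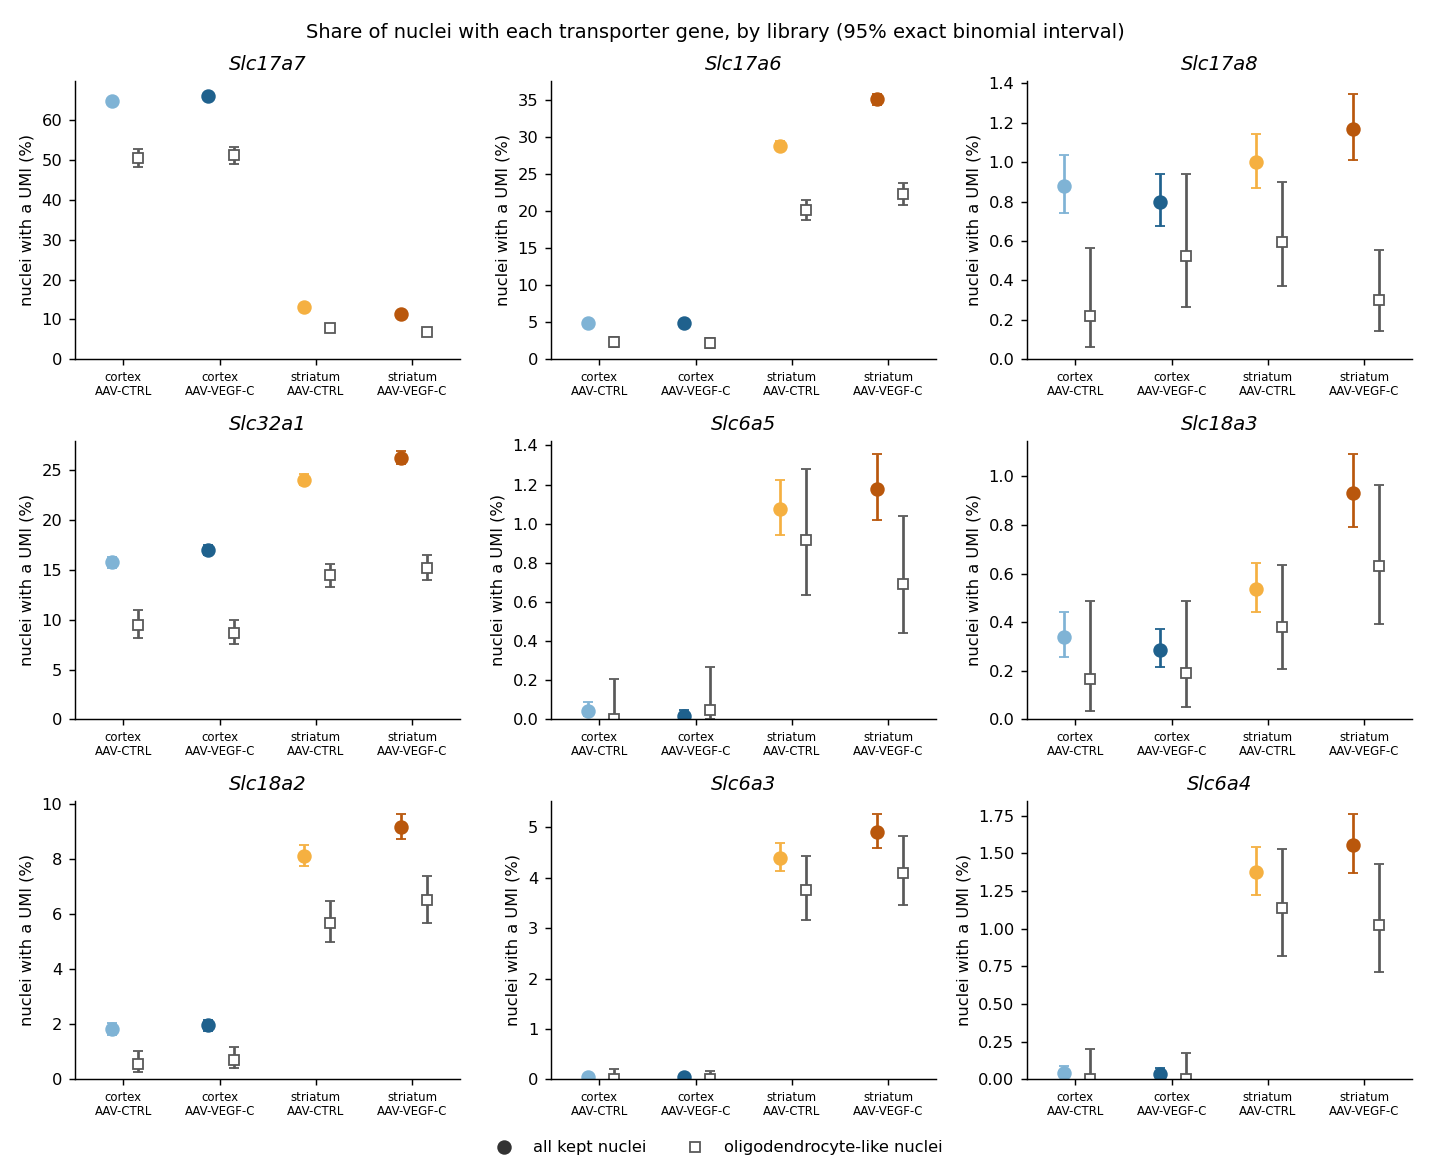
Share of nuclei with at least 1 UMI of each transporter gene (y axis, percent, each panel with its own scale from 0) in the 4 libraries (x axis), for all kept nuclei (filled circles) and for oligodendrocyte-like nuclei of the same library (open squares). Bars are exact binomial 95% intervals. Slc17a7 is the gene that is higher in the cortex libraries, and for Slc6a3 in the striatum libraries the oligodendrocyte-like share (3.76% and 4.10%) comes close to that of all nuclei (4.40% and 4.91%).

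The level in oligodendrocyte-like nuclei, which should use none of these genes for a transmitter, is taken below as the background. Its source was not measured, since no empty droplets were used here. These nuclei carried Slc17a7 in 50.5%, 51.2%, 7.73% and 6.81% of nuclei at a median of 1643 to 2054 UMIs, and microglia-like nuclei carried it at like shares. Slc17a6 was present in 2.27%, 2.15%, 20.1% and 22.3% of oligodendrocyte-like nuclei, and Slc32a1 in 9.48%, 8.70%, 14.4% and 15.2%. These shares followed the region of the library and lay below those of all nuclei. Per UMI the gap could vanish, since Slc17a7 in the cortex libraries stood at 447 and 438 CPM in oligodendrocyte-like nuclei against 422 and 462 CPM in all nuclei.

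Slc17a8, though rare, stood apart from this background in some libraries, at 0.222% of oligodendrocyte-like against 0.879% of all nuclei in cortex AAV-CTRL and 0.301% against 1.17% in striatum AAV-VEGF-C. The gap was smaller for Slc6a3. It was present in 3.76% and 4.10% of oligodendrocyte-like nuclei of the striatum libraries but in 0 of 1803 and 0 of 2091 of the cortex libraries, which allows shares of up to 0.166% and 0.143%. Per UMI, Slc6a3 stood at 29.6 and 21.5 CPM in oligodendrocyte-like nuclei of striatum, against 22.3 and 25.2 CPM in all nuclei. Slc6a4 was present in 1.14% and 1.02% of the oligodendrocyte-like nuclei of striatum, with an interval (0.819 to 1.53 for AAV-CTRL) that overlaps that of all nuclei (1.22 to 1.54). For Slc6a5 in striatum the shares were 0.919% in oligodendrocyte-like and 1.08% in all nuclei of AAV-CTRL, and 0.693% and 1.18% in AAV-VEGF-C. A nucleus with 1 UMI of Slc6a3, Slc6a4 or Slc6a5 is therefore read below as background unless its cluster stood above the oligodendrocyte-like level.

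With at least 2 UMIs of 1 gene required, the share of nuclei with any of the 9 became 39.9%, 42.7%, 20.2% and 24.7%. Slc17a7 was then present in 37.0% and 38.6% of cortex nuclei and in 3.03% and 2.56% of striatum nuclei. Slc17a6 was present in 0.588% and 0.732% of cortex nuclei and in 9.57% and 13.5% of striatum nuclei. After each nucleus was thinned to 1000 UMIs, Slc17a6 stood at 13.2% in striatum AAV-CTRL and 15.3% in striatum AAV-VEGF-C, a smaller gap than the 28.8% and 35.1% without thinning, with 1481 and 425 shallower nuclei left out of these 2 libraries.

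The nuclei were clustered without the 9 genes, which gave 103 clusters, and each gene's level in each cluster was set against the level in oligodendrocyte-like nuclei of the same libraries. A level counts as above background where it rested on at least 10 UMIs, was at least 2 times that level and had its lower limit over it. A total of 33 clusters were above for none of the 9 genes, 53 for 1, 13 for 2, 2 for 3, 1 for 4 and 1 for all 9. The most frequent number was thus 1. By gene, 32 of the 103 clusters were above for Slc32a1, 26 for Slc17a6, 12 for Slc17a8, 9 for Slc17a7, 6 for Slc18a2, 4 each for Slc18a3 and Slc6a4, 3 for Slc6a5 and 2 for Slc6a3. The cluster above for all 9 held 3861 nuclei at a median of 1267 UMIs, nearly all from the striatum libraries, and that above for 4 held 3845 nuclei at a median of 1431 UMIs. These 2 are clusters of low depth, and each is counted for the genes it passed.

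**Figure D2:**
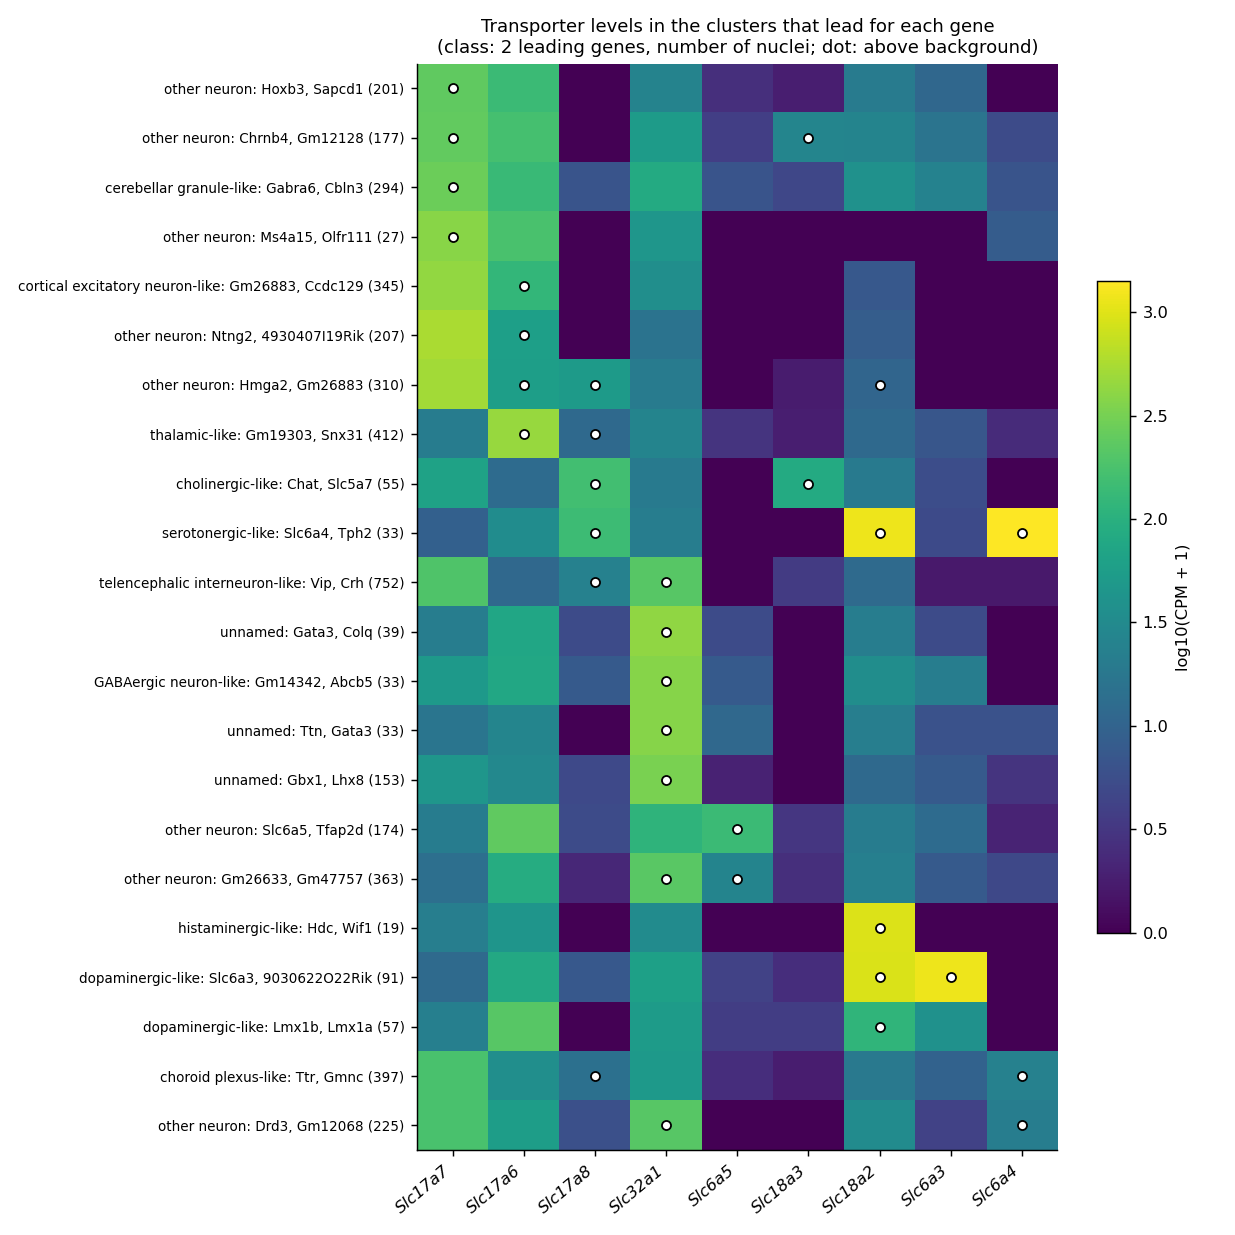
Level of each transporter gene (columns) as log10(CPM + 1) in the clusters that stood furthest above background for each gene, up to 4 per gene (rows, with class, 2 leading genes and number of nuclei), without the 2 clusters of low depth. White dots mark levels above background. The serotonergic-like, Slc6a3-led dopaminergic-like and histaminergic-like rows carry the brightest cells, for Slc6a4 (1411 CPM), Slc6a3 (1161 CPM) and Slc18a2 (949 to 1171 CPM).

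Slc17a7 was above background in cerebellar granule-like nuclei, at 274 CPM (232 to 322) against 61.1 CPM in oligodendrocyte-like nuclei of the same libraries, and in a cluster led by Hoxb3, at 241 CPM (214 to 270) against 41.0. Hoxb3 is a patterning gene of the hindbrain. In the 9986 cortical excitatory-like nuclei, where Slc17a7 is the usual glutamate transporter, its level was 615 CPM against 429 CPM in oligodendrocyte-like nuclei of the same libraries. That is 1.44 times per UMI, under the 2-fold limit, although a nucleus carried 2.55 Slc17a7 UMIs against 0.762. Of these nuclei, the 3845 of the cluster of low depth stood at 945 CPM (920 to 971) and passed. The 2-fold limit hence leaves out most cortical excitatory-like nuclei for this gene.

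Slc17a6 was highest against background, among clusters of the striatum libraries, in a thalamic-like cluster of 412 nuclei, at 465 CPM (443 to 488) against 124, with 91.7% of its nuclei positive. A second thalamic-like cluster of 823 nuclei carried 278 CPM of Slc17a6 and, unlike the first, also 106 CPM (97.9 to 115) of Slc17a7 against 47.0. Both genes were found in 314 of its nuclei. In the cortex libraries Slc17a6 was above background in a cortical excitatory-like cluster led by Gm26883, Ccdc129 and Tshz2, at 121 CPM (102 to 141) against 16.2, which puts 33.6% of its 345 nuclei as positive.

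Slc17a8 marked the cholinergic-like cluster, at 156 CPM (121 to 198) against 2.10, and the serotonergic-like cluster, at 143 CPM (99.4 to 199) against 2.12. It was also above background in a cluster almost confined to the cortex libraries and led by Hmga2 and Gm26883, at 51.7 CPM with 15.8% of 310 nuclei positive. Telencephalic interneuron-like nuclei led by Vip, a peptide of a group of cortical GABA cells, carried 23.6 CPM (18.5 to 29.5), but in only 3.32% of 752 nuclei and with up to 10 UMIs in 1 nucleus.

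Slc32a1 was above background in all 4 telencephalic interneuron-like clusters, the 3 large ones at 225 CPM (211 to 239), 216 CPM (201 to 233) and 215 CPM (197 to 233) against 58.5 to 59.0. The highest level was 427 CPM (348 to 518) in 39 nuclei led by Gata3, a transcription factor of midbrain and hindbrain GABA neurons. Slc6a5 was above in a cluster of 174 nuclei that it led itself with Tfap2d, at 137 CPM (115 to 163) against 4.21. There it was found in 40 nuclei, beside Slc17a6 at 240 CPM (209 to 273) and Slc32a1 at 110 CPM (89.5 to 133), neither of which reached 2 times background. Apart from the cluster of low depth, the other Slc6a5 cluster held 363 nuclei, with Slc6a5 at 25.6 CPM (19.6 to 32.9) and Slc32a1 at 219 CPM (200 to 238).

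Slc18a3 was above background in the cholinergic-like cluster, at 82.7 CPM (57.9 to 114) against 2.02, with 24 of 55 nuclei positive. A cluster led by the nicotinic receptor genes Chrnb4 and Chrna3 carried Slc18a3 at 26.5 CPM (16.0 to 41.4) together with Slc17a7 at 244 CPM (209 to 283). Its 177 nuclei came from the striatum libraries but for 1, and Slc17a6 stood there at 165 CPM against 124 in background.

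The monoamine genes reached their highest levels in very few nuclei, but most of their UMIs lay elsewhere. The clusters above background, the cluster of low depth among them, held 38.6% of Slc6a3, 46.2% of Slc6a4 and 27.8% of Slc18a2 UMIs. In the 91 nuclei of the dopaminergic-like cluster led by Slc6a3, the level of Slc6a3 was 1161 CPM (1078 to 1248) against 25.0, and that of Slc18a2 was 949 CPM (874 to 1028) against 35.9. Slc6a4 was found in 0 of these 91 nuclei, which allows a share of up to 3.30%. A cluster of 57 nuclei led by Lmx1b and Lmx1a met the naming rule for dopaminergic-like through Ddc, Nr4a2, Ret and Lmx1b, 4 of the 7 markers, but not through Th, Pitx3 or En1, so its name is weakly based. It carried Slc18a2 at only 116 CPM (83.4 to 156), Slc6a3 at 38.6 CPM (21.1 to 64.7) against 24.5 in background, and Slc17a6 at 212 CPM (167 to 265) against 123.

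In the 33 serotonergic-like nuclei Slc6a4 stood at 1411 CPM (1266 to 1568) against 5.93 and Slc18a2 at 1171 CPM (1039 to 1314). The 19 histaminergic-like nuclei carried Slc18a2 at 960 CPM (825 to 1111) and no UMI of Slc6a3, Slc6a4 or Slc17a8, each of which allows up to 15.8% of so few nuclei. Slc18a2 was thus the gene shared by all 3 monoamine classes, and Slc6a3 and Slc6a4 each marked 1 of them. Slc6a4 also passed in choroid plexus-like nuclei with 29 UMIs, of which 22 lay in 1 nucleus, and in a cluster led by Drd3 with 13 UMIs, of which 10 lay in 1 nucleus.

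More than 1 of the 9 genes was present in 14.8%, 15.7%, 18.9% and 22.8% of nuclei. With 2 UMIs of each required, these shares became 1.46%, 1.71%, 2.01% and 2.95%. Each pair of genes was set against the product of its separate shares in the same library, as a description. That product is what unrelated detection would give in nuclei of equal depth. Depth differed between nuclei, and the product was not corrected for it, either at 1 UMI or at 2 UMIs of each. Within single libraries, 8, 9, 24 and 26 of the 36 pairs had at least 20 nuclei with both. Of these, 5, 7, 17 and 19 were at or over the product. With the 4 libraries pooled, 30 pairs had that many, and 22 of these 30 were at or over the product of the pooled shares. The pooled count mixes the region labels.

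In the striatum libraries the 3 pairs that stood furthest over the product were Slc17a8 with Slc6a4, Slc18a2 with Slc6a4 and Slc18a2 with Slc6a3. Slc18a2 and Slc6a3 occurred together in 203 nuclei of striatum AAV-CTRL and 175 of striatum AAV-VEGF-C, 2.67 and 2.37 times the product. Oligodendrocyte-like nuclei also held this pair over its product, in 26 and 17 nuclei or 3.28 and 1.92 times, so detection of 1 UMI of each does not mark a dopamine cell. With at least 2 UMIs of each, the pair was found in 73 and 60 nuclei, 30.7 and 38.6 times the product. In the Slc6a3-led dopaminergic-like cluster, 67 of the 68 Slc6a3-positive nuclei carried Slc18a2, against a product of 58.3.

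Slc18a2 and Slc6a4 followed the same form, with 79 and 68 nuclei in the striatum libraries (3.32 and 2.90 times) and 28 and 35 nuclei at 2 UMIs of each (43.8 and 55.3 times). Oligodendrocyte-like nuclei of these libraries also held this pair over its product, in 7 and 4 nuclei or 2.92 and 1.81 times. All 29 Slc6a4-positive nuclei of the serotonergic-like cluster carried Slc18a2, against a product of 27.2. Slc17a8 and Slc6a4 met in 16 and 14 nuclei, 5.46 and 4.69 times the product, and 8 of the 9 Slc17a8-positive serotonergic-like nuclei carried Slc6a4, against a product of 7.91. Slc6a3 and Slc6a4, which belong to different monoamine cells, met in 10 and 10 nuclei, 0.776 and 0.799 times the product.

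Slc17a8 and Slc18a3 showed the largest ratio of a pair in the cortex libraries with more than 3 nuclei, with 7 nuclei in AAV-CTRL (14.5 times) and 15 in AAV-VEGF-C (34.7 times), against 2 and 3 nuclei in the striatum libraries (1.75 and 1.67 times). Inside the cholinergic-like cluster the pair was found in 11 nuclei against a product of 11.3, so within that cluster the ratio to the product was near 1. Slc32a1 and Slc6a5 met in 90 and 80 striatum nuclei (1.64 and 1.58 times), and at 2 UMIs of each in 15 and 16 (5.64 and 4.33 times). Of the 24 Slc6a5-positive nuclei in the cluster with both, 21 carried Slc32a1, against a product of 15.9.

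The main excitatory and inhibitory genes were found together less often than their product. Slc17a7 and Slc32a1 met in 1520, 1960, 642 and 451 nuclei, 0.921, 0.926, 0.955 and 0.931 times the product, and in neuronal nuclei alone the ratios were 0.846, 0.846, 0.815 and 0.767. Slc17a6 and Slc32a1 gave 0.910 and 0.944 in the striatum libraries, and 0.766 and 0.786 in their neuronal nuclei. In oligodendrocyte-like nuclei the same 2 pairs stood at 1.03 to 1.08 in the striatum libraries.

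The 2 glutamate transporters Slc17a7 and Slc17a6 were on the other side of 1, at 1.17, 1.18, 1.22 and 1.30 times the product, and at 2 UMIs of each at 1.65, 1.52, 1.78 and 2.71 times. In oligodendrocyte-like nuclei this pair stood at 1.01, 1.00, 1.13 and 1.13 times at 1 UMI. Slc17a6 and Slc6a3, a pair known from some dopamine neurons, stood at 1.07 and 1.05 in the striatum libraries and at 1.06 and 0.960 in their neuronal nuclei. The corresponding ratios in oligodendrocyte-like nuclei were 1.07 and 1.16.

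**Figure D3:**
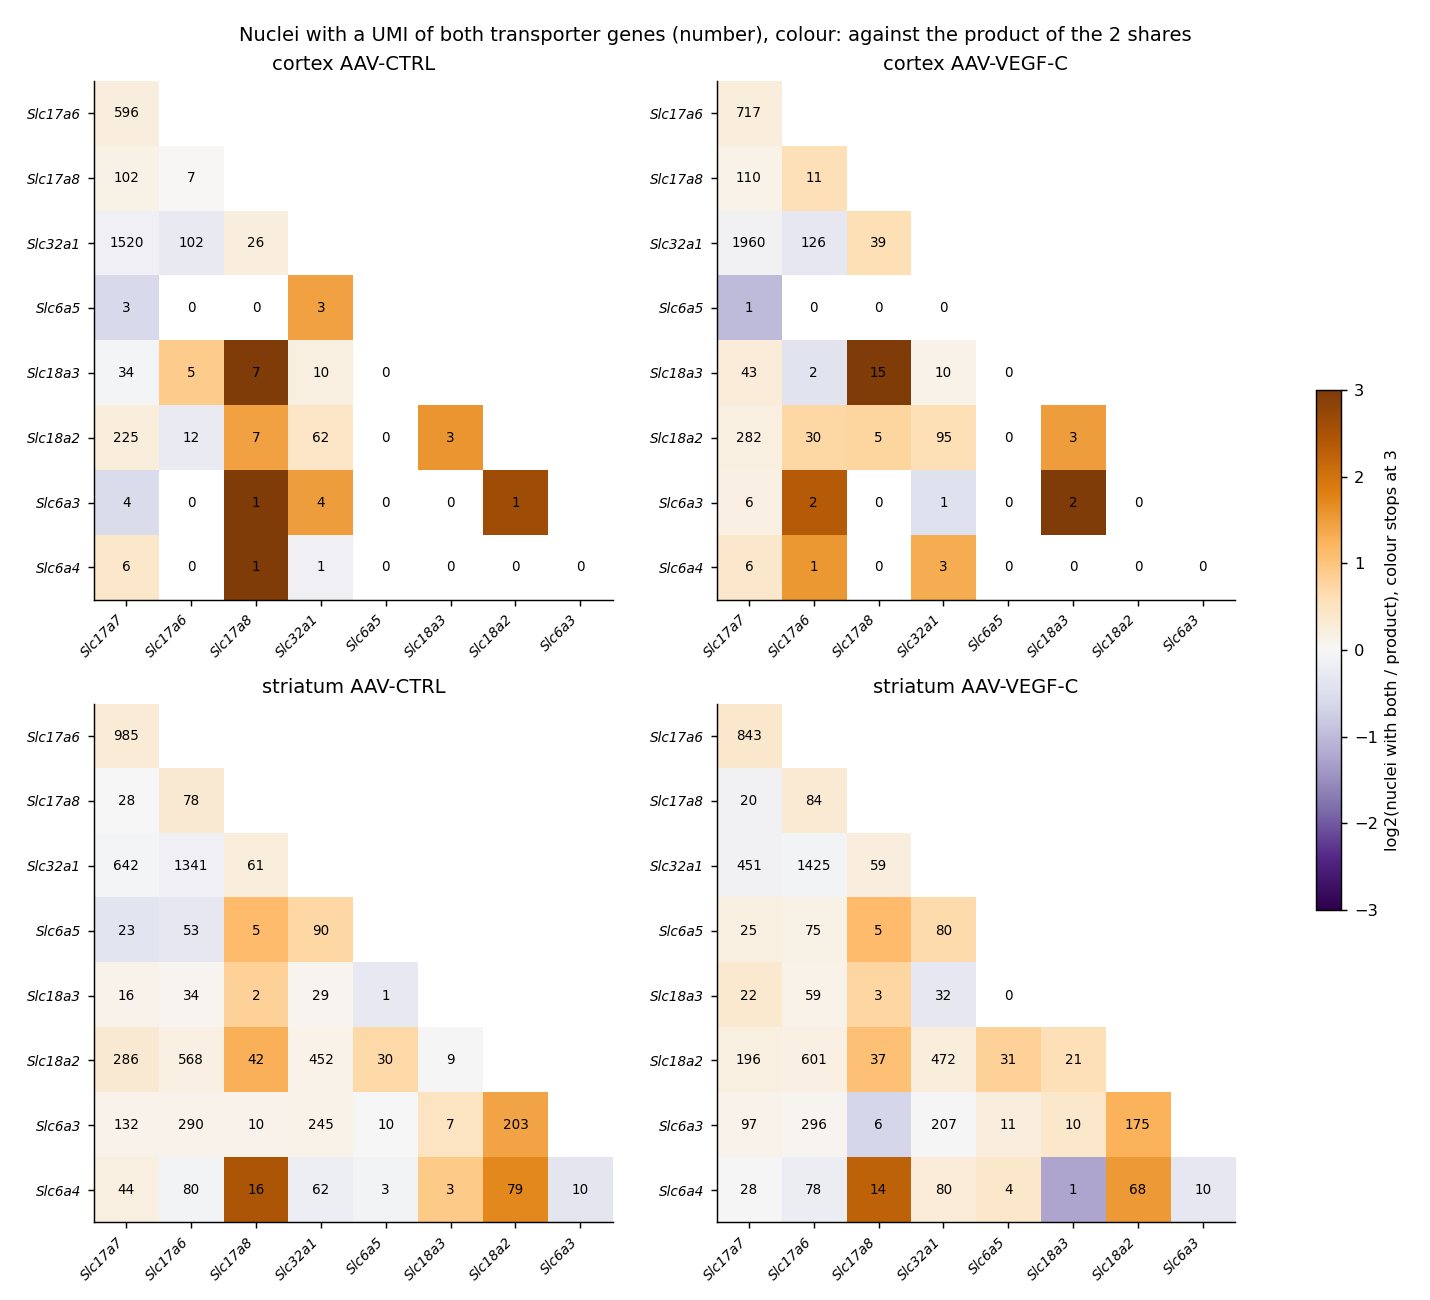
Number of nuclei with at least 1 UMI of both genes (numbers) for all 36 pairs in each library, coloured by the log2 of that number over the product of the separate shares (colour stops at 3, pairs with no nucleus are white). In the striatum libraries the darkest cells are Slc17a8 with Slc6a4 (16 and 14 nuclei) and Slc18a2 with Slc6a4 (79 and 68), and in the cortex libraries the cells at the end of the scale other than Slc17a8 with Slc18a3 (7 and 15 nuclei) hold 1 or 2 nuclei.

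The synthesis genes of each transmitter were checked in the neuronal nuclei that held at least 2 UMIs of a transporter. Here and in the next paragraph, the nuclei compared had no UMI of that transporter and were not matched for depth. Tph2, the brain enzyme of serotonin synthesis, was found in 70.0% (50.6 to 85.3) of 30 nuclei with Slc6a4 in striatum AAV-CTRL and 79.5% (63.5 to 90.7) of 39 in striatum AAV-VEGF-C, against 1.89% and 2.31% of neuronal nuclei of the same libraries without Slc6a4. Th, the rate-limiting enzyme of dopamine synthesis, was found in 31.6% (22.4 to 41.9) of 95 nuclei with Slc6a3 in striatum AAV-CTRL and in 52.5% (41.0 to 63.8) of 80 in striatum AAV-VEGF-C, against 2.12% and 3.30%. The decarboxylase Ddc was found in 41.1% and 68.8% of these, against 6.03% and 7.62%. Slc18a3 was accompanied by Chat in 65.2% (42.7 to 83.6) and by the choline carrier Slc5a7 in 91.3% (72.0 to 98.9), though of only 23 nuclei over the 4 libraries. Hdc, the enzyme of histamine synthesis, was found in 6.39% (3.54 to 10.5) of 219 and 7.14% (3.96 to 11.7) of 196 nuclei with Slc18a2 in the 2 striatum libraries, against 0.934% and 1.30%.

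Gad1 and Gad2, which make GABA, were found in 62.9% (61.3 to 64.4) and 73.8% (72.4 to 75.2) of 3885 nuclei with Slc32a1, against 25.9% and 30.2% of those without, over the 4 libraries. With Slc6a5, Gad2 was found in 63.6% (45.1 to 79.6) of 33 nuclei of striatum AAV-CTRL and 74.4% (57.9 to 87.0) of 39 of striatum AAV-VEGF-C, against 46.7% and 50.6%. The Gad2 interval includes the share without Slc6a5 in AAV-CTRL but not in AAV-VEGF-C. Gad1 was found in 39.4% (22.9 to 57.9) and 51.3% (34.8 to 67.6) of the same nuclei, against 36.6% and 36.8%, with intervals that include the shares without Slc6a5 in AAV-CTRL and in AAV-VEGF-C. Across the 103 clusters, taking log2(CPM + 1), the genes whose levels were most like Slc32a1 were Gad1 (Pearson r 0.876), Gad2 (0.871) and Abat (0.751), the last of which breaks GABA down. Those most like Slc6a3 were Th (0.733), Ret (0.666) and Calb2 (0.640), and those most like Slc6a4 were Tph2 (0.682), Ddc (0.481) and Cpt2 (0.467). Tph2, Th, Ddc, Chat, Slc5a7 and Hdc were used to name clusters, and clusters share their libraries and differ in depth, so these r values are a description.

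For Slc17a7 the closest genes were Nrgn (0.810), Ddn (0.804) and Egr3 (0.783), and for Slc17a6 they were Shox2 (0.674), Tcf7l2 (0.665) and Amotl1 (0.619). Slc18a3 was closest to Slc5a7 (0.612), Prkar2a (0.515) and Tdrd6 (0.514), and Slc18a2 to AW551984 (0.597), Lrrc75b (0.589) and Dlk1 (0.579). The likeness was weaker for Slc6a5, with Tnnt1 (0.510), Plekhd1 (0.483) and Vamp1 (0.474), and for Slc17a8, with Svopl (0.440), Gm16033 (0.434) and Insrr (0.431).

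The comparison of the vectors asks whether these genes differed between AAV-VEGF-C and AAV-CTRL mice that had no injury. In the cortex libraries none of the 6 genes with at least 20 UMIs had a log2 ratio past 0.58 in either direction, where 2.42% of all 20708 genes with that many UMIs were past it upward and 3.09% downward. Slc17a7 stood at 422 CPM in AAV-CTRL and 462 CPM in AAV-VEGF-C, a log2 ratio of 0.13 (0.11 to 0.16). Slc32a1 stood at 58.2 and 66.2 CPM, a log2 ratio of 0.18 (0.12 to 0.25).

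The other 4 had intervals that include 0. The log2 ratio was 0.02 (-0.11 to 0.15) for Slc17a6, -0.18 (-0.46 to 0.10) for Slc17a8, -0.07 (-0.59 to 0.46) for Slc18a3 and 0.09 (-0.13 to 0.31) for Slc18a2. Slc6a5 had 10 and 3 UMIs, Slc6a3 9 and 9, and Slc6a4 8 and 7, under the minimum of 20 in the pair, and were not read. The median of the 6 was 0.05, against -0.01 for all genes.

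In the striatum libraries 1 of the 9 genes was past the fold, where 3.54% of 21182 genes were past it upward and 4.32% downward. These 2 libraries also differed in the nuclei they held (AAV-CTRL, then AAV-VEGF-C). Olfactory sensory neuron-like nuclei numbered 234 and 16, fibroblast-like nuclei 866 and 341, and those of a cluster led by Cpa6 284 and 3, while the shares were 0.324% and 0.476% for dopaminergic-like and 0.0658% and 0.116% for serotonergic-like nuclei. The part of these differences in the ratios below was not tested. Slc18a3 stood at 1.84 CPM in AAV-CTRL (121 UMIs) and 2.89 CPM in AAV-VEGF-C (178 UMIs), a log2 ratio of 0.65 (0.31 to 1.00). It came to 0.57 after thinning, just inside the limit, and oligodendrocyte-like nuclei stood at 2.10 and 3.05 CPM on 14 and 22 UMIs, a log2 ratio of 0.54 (-0.49 to 1.62). Chat had a log2 ratio of 0.51 in the same pair.

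Below the limit, Slc6a4 had a log2 ratio of 0.54 (0.36 to 0.71), at 6.95 and 10.1 CPM. In neuronal nuclei alone it was past the fold, at 0.77. Slc17a7 had a log2 ratio of -0.48 (-0.55 to -0.41), at 59.2 and 42.4 CPM. Slc17a6 was higher by 0.25 (0.21 to 0.29), Slc17a8 by 0.25 (0.00 to 0.49) and Slc6a3 by 0.17 (0.07 to 0.28), while the intervals of Slc32a1 (0.01), Slc18a2 (0.08) and Slc6a5 (-0.20) include 0. The median of the 9 was 0.17, against 0.00 for all genes.

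**Figure D4:**
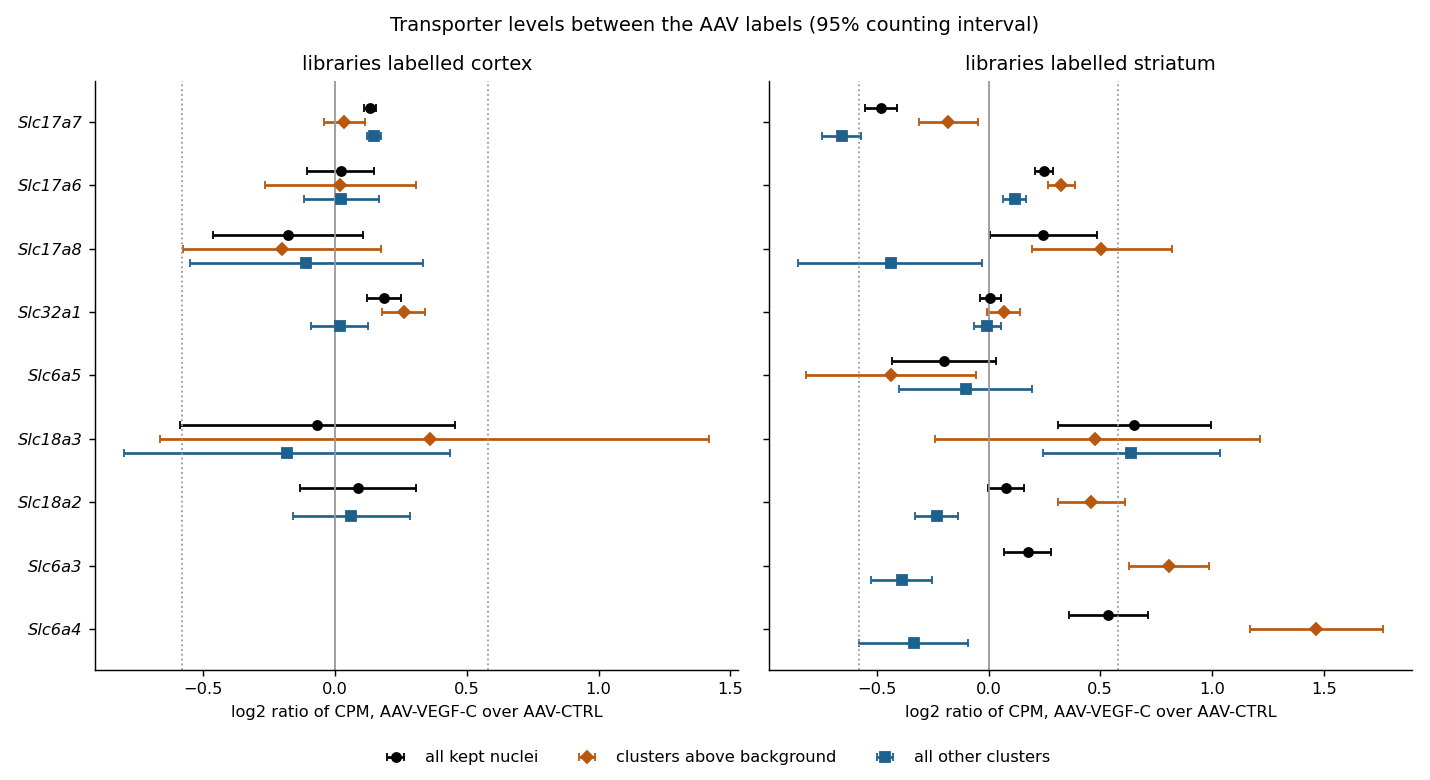
Log2 ratio of CPM, AAV-VEGF-C over AAV-CTRL (x axis), for each transporter gene (y axis) in the libraries labelled cortex (left) and striatum (right), over all kept nuclei (circles), within the clusters above background for that gene (diamonds) and in all other clusters (squares). Bars are 95% counting intervals, dotted lines mark 0.58 in either direction, and values on fewer than 20 UMIs are left out. For Slc6a3 and Slc6a4 in striatum the clusters above background lie to the right (0.81 and 1.46) and all others to the left of 0 (-0.39 and -0.33). The clusters were picked by UMIs of the same gene in the same libraries.

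For the monoamine genes in striatum, the ratio differed in sign between the clusters that stood above background, the cluster of low depth among them, and the rest. These clusters were picked by UMIs of the same gene in the libraries compared, so this split is a description and no separate support. For Slc6a4 they included the choroid plexus-like and Drd3-led clusters, in each of which most UMIs lay in 1 nucleus. Slc6a3 was higher in AAV-VEGF-C by 0.81 (0.63 to 0.99) within its clusters, lower outside them (-0.39) and lower in oligodendrocyte-like nuclei (-0.46). Slc6a4 showed 1.46 (1.17 to 1.77) within, -0.33 outside and -0.74 in oligodendrocyte-like nuclei. Slc18a2 showed 0.46 (0.31 to 0.61) within, -0.23 outside and -0.17 in oligodendrocyte-like nuclei.

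The leading clusters alone gave the same direction, but for Slc18a2 in serotonergic-like and histaminergic-like nuclei it reversed without the highest nucleus of each library. In the Slc6a3-led dopaminergic-like cluster Slc6a3 stood at 714 CPM in 42 nuclei of AAV-CTRL and at 1502 CPM in 49 nuclei of AAV-VEGF-C, a log2 ratio of 1.07 (0.83 to 1.32). The median nucleus held 3 and 4 UMIs, the upper quartile 8 and 16, and the highest nucleus 18 and 90. Without the highest nucleus of each library the levels were 685 and 1313 CPM. The lower quartile was 0 and 1, and 28 of 42 and 40 of 49 nuclei were positive. The gap in UMIs was thus largest in the upper part of the distribution, and the median nuclei were close.

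Slc18a2 in the same nuclei stood at 737 and 1111 CPM, a log2 ratio of 0.59 (0.34 to 0.85), with a median of 4 UMIs in both. In serotonergic-like nuclei Slc6a4 stood at 934 CPM in 14 nuclei and 1649 CPM in 19, a log2 ratio of 0.82 (0.45 to 1.21), and there the median nucleus differed too, with 4.5 and 12 UMIs at a median depth of 5478 and 8189 UMIs of all genes. Slc18a2 stood at 1118 and 1197 CPM in these nuclei, a ratio of 0.10 (-0.27 to 0.47). Without the highest nucleus of each library the levels were 726 and 1392 CPM for Slc6a4 and 1036 and 923 CPM for Slc18a2. In histaminergic-like nuclei Slc18a2 stood at 929 CPM in 12 nuclei and 991 CPM in 7, and at 875 and 779 CPM without the highest nucleus of each. These are 7 to 49 nuclei of 1 library each, counting intervals say nothing of differences between nuclei or mice, and the vector cannot be told apart from the library.

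**Figure D5:**
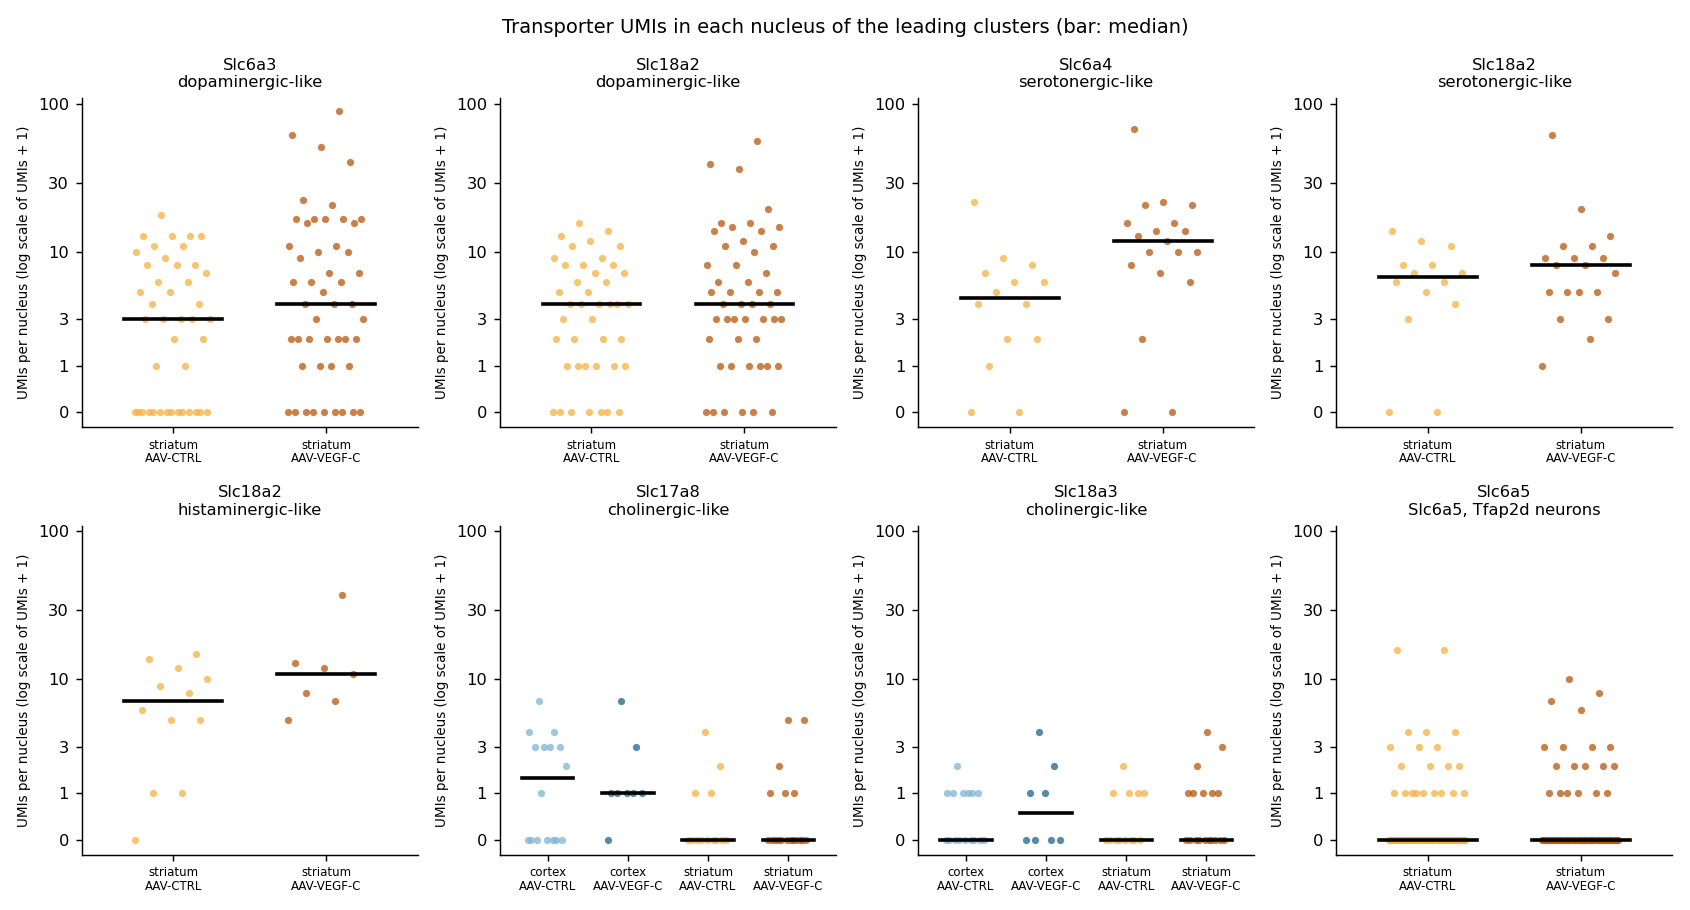
UMIs per nucleus (y axis, log scale of UMIs + 1) of the transporter gene named above each panel in the leading clusters, by library (x axis). Each point is 1 nucleus, spread sideways for sight, and the bar is the median. Slc6a3 reaches 90 UMIs in striatum AAV-VEGF-C and 18 in AAV-CTRL with medians of 4 and 3, and Slc6a4 has medians of 12 and 4.5.

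Slc17a8 in the serotonergic-like nuclei rested on 5 and 30 UMIs, with a log2 ratio of 1.58 (0.20 to 3.30). Slc6a5 in the cluster it led stood at 145 CPM in 96 nuclei of striatum AAV-CTRL and 132 CPM in 76 of AAV-VEGF-C, a log2 ratio of -0.13 (-0.66 to 0.39). In the other Slc6a5 cluster it stood at 31.6 CPM in 221 nuclei and 14.7 CPM in 139, on 42 and 15 UMIs, a log2 ratio of -1.10 (-2.06 to -0.22). Slc17a6 in the first thalamic-like cluster stood at 421 and 488 CPM, a ratio of 0.21 (0.06 to 0.37). Slc32a1 in the largest interneuron-like cluster of the cortex libraries stood at 195 and 246 CPM, a ratio of 0.34 (0.14 to 0.54), with 349 and 449 nuclei. In the Vip-led and Sst-led interneuron-like clusters of these libraries the ratios were 0.27 (0.04 to 0.50) and 0.11 (-0.15 to 0.36). In the striatum libraries the same clusters, in this order, gave 0.27, -0.57 and -0.41, with intervals that include 0. In the cholinergic-like cluster, Slc17a8 stood at 285 and 229 CPM in cortex on 16 and 8 nuclei and at 79.9 and 91.1 CPM in striatum on 13 and 18.

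For 8 of the 9 genes the differences between the region labels were larger than those between the vectors, the exception being Slc17a8, with a region ratio of 0.24 within AAV-CTRL against 0.25 between the vectors in striatum. Within AAV-CTRL 7 of the 9 genes were higher in striatum past the fold, where 20.7% of 21098 genes were, and 1 was lower, where 9.96% of genes were. Within AAV-VEGF-C 8 were higher, against 21.3% of 21057 genes, and 1 lower, against 9.82%. The median of the 9 log2 ratios was 2.88 and 2.87, against 0.19 and 0.20 for all genes. The gene that was lower was Slc17a7 in both, at -2.83 (-2.88 to -2.78) and -3.45 (-3.50 to -3.39).

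Slc6a3 had the largest ratio in both vector groups. It stood at 0.156 and 0.129 CPM in cortex (9 UMIs each) and at 22.3 and 25.2 CPM in striatum, log2 ratios of 7.16 (6.23 to 8.29) and 7.60 (6.67 to 8.73). Slc6a4 stood at 0.139 and 0.101 CPM in cortex and at 6.95 and 10.1 CPM in striatum, log2 ratios of 5.65 (4.66 to 6.87) and 6.64 (5.59 to 7.96). Their vesicular partner Slc18a2 differed by 2.88 (2.70 to 3.05) and 2.87 (2.71 to 3.03), from 5.29 and 5.61 CPM in cortex to 38.8 and 41.0 CPM in striatum.

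Slc17a6 stood at 15.8 and 16.0 CPM in cortex and at 148 and 176 CPM in striatum, log2 ratios of 3.23 (3.13 to 3.33) and 3.45 (3.36 to 3.54). Slc6a5 differed by 4.91 (4.01 to 5.98) and 6.72 (5.16 to 9.01), on 10 and 3 UMIs in cortex. Slc32a1 was higher by 0.99 (0.93 to 1.05) and 0.81 (0.76 to 0.87), from 58.2 and 66.2 to 116 and 116 CPM. Slc18a3 was higher by 0.82 (0.37 to 1.29) and 1.54 (1.13 to 1.96).

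Slc17a8 was past the fold within AAV-VEGF-C only, a difference that was not tested. Its log2 ratio was 0.24 (-0.03 to 0.51) within AAV-CTRL and 0.66 (0.41 to 0.92) within AAV-VEGF-C, the latter being 0.47 when the libraries were scaled by TMM (trimmed mean of M-values) and 0.48 after thinning. Of the 18 genes of transmitter synthesis, uptake and breakdown on a second list, 17 had enough UMIs. Of these, 14 were higher in striatum within AAV-CTRL and 15 within AAV-VEGF-C, and 0 of 17 were past the fold between the vectors in either region. Th had region ratios of 3.05 and 3.73, and Tph2 of 3.71 and 3.93, while Gad1 was at 0.56 and 0.32.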

How the data were processed

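Nuclei were isolated from pooled frozen tissue, and libraries were prepared with the droplet 3′ chemistry of 10x Genomics. The deposited values are whole-number UMI counts per gene and nucleus with no normalization, which the authors made with Cell Ranger against mm10. The version is 5.1.1 per the submitters' processing notes and 5.0.1 per the file headers. The annotation, and the treatment of intronic reads, are not given in the sources used here. The authors also discarded cells under 200 UMIs, a limit that no deposited barcode fell under. They then dropped clusters averaging under 1000 counts, which they put down to debris, doublets and dead cells. That left 78728 nuclei, the number of barcodes deposited.

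Here, doublets were called per library with Scrublet in scanpy 1.11.5 (expected rate 8%), and clusters with over 40% doublets were dropped. Counts were scaled to 10000 per nucleus, logged, and reduced to 50 principal components of 5000 variable genes without the 9 transporter genes, then clustered with 15 neighbours by the Leiden method at resolution 1.2. Neuronal clusters mostly of the striatum libraries (18003 nuclei) were clustered a second time, a step added after the first result was seen. Classes were named where at least 3 markers of a fixed list were higher by 2-fold, and the conditions on how many markers were needed were also set after the clusters were seen. A total of 51 clusters stayed "other neuron" and 11 unnamed. Levels are UMIs per 1000000 UMIs of the kept nuclei and are 3′ tag counts not divided by length, so the genes are not ranked against one another. Shares carry exact Clopper-Pearson intervals, levels exact Poisson intervals, and log2 ratios exact conditional binomial intervals. A ratio was called past the fold at 0.58 on the log2 scale, the limit the study used, with at least 20 UMIs in the pair. Each group is 1 library, and no test was made. The functions were tested on simulated data. Alternatives were edgeR 4.0.16 TMM factors, a fold of 1, neuronal nuclei only, all barcodes, thinning to 1000 UMIs, at least 2 UMIs and resolution 0.8. The comparison with the oligodendrocyte-like level and the omission of low-depth clusters were added after seeing the data. The transporter genes and all lists were chosen with earlier results of these data known. Cluster naming from markers and the pooling of mice limit every value to these 4 libraries.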

Additional observations from a re-analysis of the deposited data

Results flagged for a closer look

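Slc17a7 differed between AAV-VEGF-C and AAV-CTRL in opposite directions under the 2 region labels. Its log2 ratio was 0.13 in the libraries labelled cortex and -0.48 in those labelled striatum. With 1 library on each side, the difference between these ratios was not tested. In the striatum libraries, cortical excitatory-like nuclei numbered 238 in AAV-CTRL and 73 in AAV-VEGF-C, and the level of Slc17a7 in oligodendrocyte-like nuclei was 46.0 and 34.1 CPM. The ratio within the clusters above background, which were picked by the same UMIs, was -0.18 and outside them -0.66. The part of either value in the result was not tested.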

How the results depend on the processing

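No paired analysis was made, since each group is 1 library, and no replicate could be left out. A model additive in region and vector would leave 1 residual degree of freedom and was not run. The 4 counts of genes past the fold and the 8 shares below have no direction, so they are compared by size only. All 8 shares moved out of their intervals at 2 UMIs, after thinning and in neuronal nuclei only. In striatum, the count of genes past the fold between the vectors was 1, and became 0 at a fold of 1, 0 after thinning (Slc18a3 at 0.57) and 2 in neuronal nuclei only (Slc6a4 added). The other 3 comparisons kept their counts within 1.5 times under all alternatives run. The share of nuclei with any of the 9 genes became 39.9%, 42.7%, 20.2% and 24.7% at 2 UMIs, 41.2%, 42.4%, 32.4% and 32.8% after thinning to 1000 UMIs, and 82.5%, 85.0%, 73.5% and 78.7% in neuronal nuclei only. With all barcodes it was 60.1% in striatum AAV-CTRL. The share with 2 or more genes became 1.46%, 1.71%, 2.01% and 2.95% at 2 UMIs, 3.05%, 2.83%, 4.43% and 4.70% after thinning, and 19.8%, 21.6%, 27.3% and 33.2% in neuronal nuclei only. With all barcodes it was 16.6% in cortex AAV-VEGF-C and 19.6% in striatum AAV-CTRL. Fewer UMIs or other nuclei enter these shares by construction. TMM scaling removed most of the 0.19 and 0.20 shift of the median gene between the region labels. Without the 2 clusters of low depth no count of genes past the fold changed. At resolution 0.8, 22 of the levels of these genes moved and 167 stayed the same. Of the log2 ratios, 8 moved with TMM scaling, 9 after thinning and 12 in neuronal nuclei only, while 28, 27 and 24 stayed the same. Depth limits Slc6a5, Slc6a3 and Slc6a4 in the cortex libraries, which had fewer than 20 UMIs in the pair.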
